A study of Rattus norvegicus with 20 samples.

Results

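Visceral fat of rats given 10% less food for 1 month was compared with visceral fat of fully fed rats of the same age. The comparison rests on 4 of the 20 chips of the series, taken by their labels, of which 2 are labelled as 1 month of 10% caloric restriction (CR) and 2 as 1 month control. All rats were male Wistar rats, 6 weeks old when feeding began, and all were fasted for 16 h before the white fat was taken. Control rats received the whole daily intake recorded for freely fed animals of the same purified diet, and CR rats received 10% less than that. RNA of 5 rats was pooled for each group, and the labelled RNA of a pool was divided over 2 Affymetrix rat expression chips. Each diet is therefore 1 pool, the 2 chips of a pool show technical spread only, and the diet and the pool cannot be told apart. The other chips hold the 5%, 20% and 30% CR pools at 1 month and the same 5 diets at 1 week.

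White adipocytes store triglyceride and release fatty acids during a fast, and their energy stores are set by the balance of fat synthesis, lipolysis and oxidation. Visceral depots also hold vessels, resident macrophages, mesothelium and small lymph nodes, so that whole-tissue RNA mixes adipocyte and immune transcripts. Adipocytes carry a circadian clock whose output genes follow the hours of feeding.

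Values are array signals as computed by the MAS5 software and were compared as log2 signal, 10% CR minus control. A difference is given as the mean of the 2 same-numbered chip pairs with their SD. The numbers were not taken to pair the 1-month chips, so this SD depends on which chips share a number. It can be smaller than the spread of the 4 chip-to-chip differences. A gene was called higher or lower where all 4 chip-to-chip differences had one sign and the pool means differed at least 1.5-fold, a description of these 2 pools to which no p-value belongs. Of 7113 genes tested, 444 were called higher (6.24%) and 953 lower (13.4%). These shares are the background for every count of called genes below, and the median difference over all tested genes was -0.05. Over probe sets, of which 592 were higher (6.22%) and 1277 lower (13.4%), 31.7% of the calls were higher, and that share was 73.2% with each chip centred on its median and 50.7% after quantile normalization.

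Before the results, the pools themselves need a description, because they differed in a marker group that the diet labels do not name. The mean log2 signal of 24 lymphocyte markers was 8.04 in the control pool and 4.81 in the 10% CR pool. The 5%, 20% and 30% CR pools at 1 month stood at 8.01, 4.76 and 7.06, so the level did not follow the order of restriction. At 1 week the pools spanned 4.72 to 8.11. The mean of 26 adipocyte markers was 9.45 in the control pool and 9.93 in the 10% CR pool, so the tissue was read as fat on all 4 chips, with Fabp4, a fatty acid binding protein of adipocytes, at signals of 4238.5 to 6187.1. Duplicate chips correlated at 0.971 to 0.982 over the 10 pools. Probe sets that differed at least 1.5-fold between the duplicate chips made up 5.62% in the control pool and 10.7% in the 10% CR pool. The median chip signal was 42.0 and 41.4 in the control pool and 36.5 and 32.9 in the 10% CR pool, a log2 shift of -0.27 that centring each chip on its median takes out of every difference. That centring turned the median of 10 lists from below 0 to above it, namely complement, insulin signalling, adipocyte transcription factors, chaperones, endoplasmic reticulum folding, cholesterol synthesis, endothelium, smooth muscle, skeletal muscle and autophagy, so the direction of those lists rests on the scaling.

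**Figure D1:**
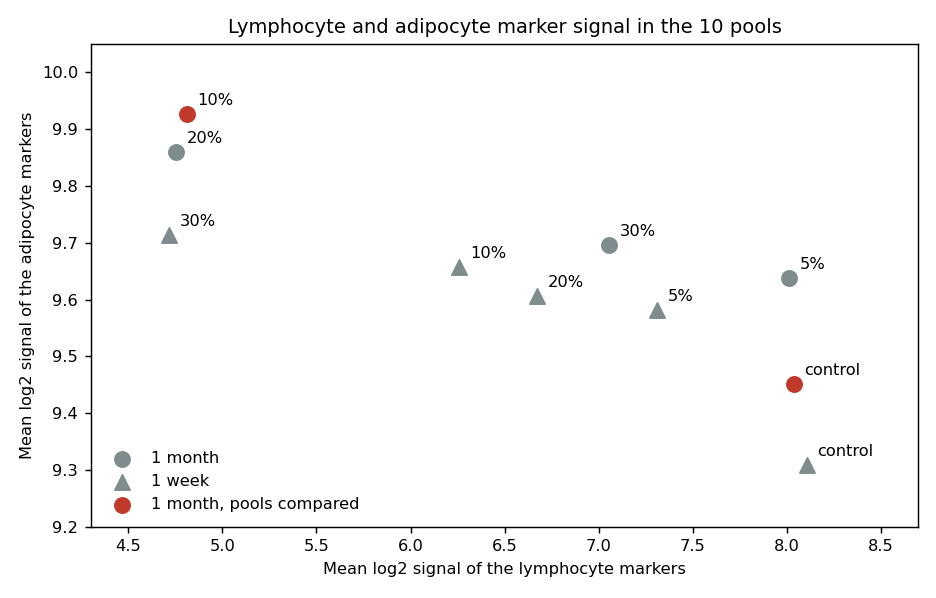
Each point is 1 pool of the series, with the mean log2 signal of 24 lymphocyte markers on the x axis and of 26 adipocyte markers on the y axis. Circles are 1-month pools, triangles 1-week pools and red circles the pools compared, and the 10% CR pool lies at 4.81 and 9.93 against 8.04 and 9.45 for the control pool.

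Lymphocyte genes carried the largest differences. Among B-cell genes, Cd79b was close to the bottom of the signal scale in the 10% CR pool, while the lymphocyte marker Cxcr5 differed by -1.33. Cd79b, a chain of the B-cell receptor complex, read 280.2 and 267.6 on the control chips and 1.3 and 1.7 on the 10% CR chips, a difference of -7.53 ± 0.32. Ighl2 and Iglc1, immunoglobulin chain genes, differed by -7.30 and -5.27. T-cell genes were low as well, with Cd3g, a chain of the T-cell receptor complex, at 454.9 and 536.3 in the control pool and 19.4 and 11.2 in the 10% CR pool (-5.07 ± 0.73). Signals this low are near the noise of the chip, and with 16 added to every signal the Cd79b difference was -4.05 and that of Cd3g -4.04.

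Of 34 lymphocyte markers on the array, 24 passed the filter on mean log2 signal over all 20 chips. A marker near the bottom of the scale in the 10% CR pool could pass only through pools where it was higher. Of the 24 tested lymphocyte markers, 23 were lower, none was higher and the list median was -3.38, against 13.4% of all tested genes called lower. Ptprcap and Coro1a, a binding partner of the leukocyte phosphatase CD45 and an actin regulator of blood cells, differed by -5.50 and -4.40. The exception was Cd48 at -0.23, whose 2 chip pairs had opposite signs, and Cd4 was the smallest difference called, at -0.60. All 9 genes of class II antigen presentation were lower (median -2.21). Cd74, the invariant chain that accompanies class II molecules, read 2795.5 and 2827.5 in the control pool and 617.2 and 599.7 in the 10% CR pool (-2.21 ± 0.04). Cxcl13 and Glycam1, a B-cell attracting chemokine and a glycoprotein of lymph node venules, differed by -4.90 and -4.84, which were the largest differences among 9 genes of lymph node stroma and chemokines, 6 of them lower. In whole tissue, fewer cells of a type and less RNA per cell cannot be told apart, and neither can the diet and the amount of lymph node taken with the fat of a pool.

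Proliferation and interferon lists also held lower calls and no higher ones. Of 25 cell cycle genes 19 were lower (median -0.95), among them Cks2 (-2.69), a subunit of cyclin-dependent kinases, and the replication helicase subunits Mcm3 and Mcm6 (-1.95). Of 18 interferon response genes 10 were lower and none higher (median -0.64), or 7 lower and 3 higher with each chip centred on its median. They were led by Irf8 (-3.22), a transcription factor of B cells and myeloid cells, and the immunoproteasome subunits Psmb10, Psmb9 and Psmb8 at -1.75, -1.63 and -1.59. Macrophage markers had smaller differences. Of 15 macrophage markers 10 were lower (median -0.74), with Mpeg1 at -2.56 and Aif1 at -1.87 as the largest, and 6 were lower with each chip centred on its median. Cd14 stood at 0.02 and Csf1r, the receptor for macrophage growth factor, at -0.50. Only C3 (-0.94) of 9 complement genes was called.

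To describe fat apart from this immune component, a called gene was set apart where it was on an immune list or where its signal over the 8 other pools correlated at 0.8 or more with the lymphocyte marker mean. Of all 7113 tested genes, called or not, 6495 did not meet this rule. Of the 953 lower genes, 406 were set apart, 78 of them on an immune list and 328 on none. Their median difference was -1.17. The rule takes positive correlations only, so that a higher gene could hardly meet it, and none of the 444 did. Of those 444, 29 (6.53%) correlated at -0.8 or less with the lymphocyte marker mean over the same 8 pools, against 1.79% of all tested genes, a count added after the data were seen. On no list of another tissue were 440 higher genes and 545 of the lower genes not set apart. These 545 had a median difference of -0.76 and a median signal of 61.9 in the control pool and 34.5 in the 10% CR pool, while the 440 had a median difference of 0.75 and signals of 120 and 210 in the control and 10% CR pools. The lower calls not set apart thus had lower signals than the higher calls.

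**Figure D2:**
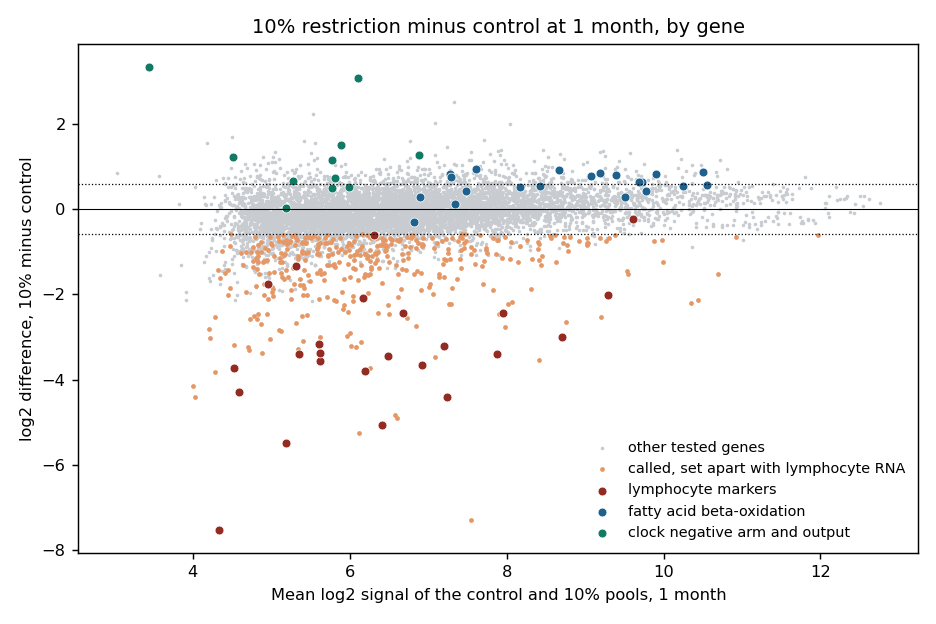
Each point is 1 of 7113 genes, with the mean log2 signal of the control and 10% CR pools on the x axis and the log2 difference, 10% CR minus control, on the y axis. Orange points are called genes set apart, dotted lines mark a 1.5-fold difference, and the lymphocyte markers reach -7.53 while beta-oxidation genes lie between -0.30 and 0.96 and clock genes between 0.04 and 3.34.

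Tef and Dbp, output factors of the clock, held the highest differences. The negative arm of the clock (Per, Cry and Rev-erb genes) represses the clock's activators, and its output factors Dbp, Tef and Hlf bind a D-box in target genes. Dbp read 24.3 and 23.2 on the control chips and 188.4 and 211.8 on the 10% CR chips, a difference of 3.07 ± 0.17. Per2 read 36.0 and 34.1 in the control pool and 93.5 and 105.9 in the 10% CR pool (1.51 ± 0.18). Nr1d2, a Rev-erb repressor, read 74.0 and 76.9 against 166.2 and 203.6 (1.29 ± 0.17). For these 3 genes every 10% CR chip was above every control chip by more than the chips of a pool differed.

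Of 11 tested clock negative arm and output genes, 7 were higher and none lower (median 1.17), with 6.24% of all tested genes called higher. Beside Dbp, Per2 and Nr1d2 these were Tef, Usp2 (1.23), Nr1d1 (1.17) and Per1 (0.74). Tef had the highest difference at 3.34, but its SD of 2.88 over the chip pairs was nearly as large, since the control chips read 11.6 and 0.8 and signals under 1 were set to 1. Adding 16 to each signal gave 1.23 for Tef. Hlf (0.66), Bhlhe41 (0.52), Cry2 (0.49) and Bhlhe40 (0.04) were not called. The list for the positive arm, which drives the clock, had 3 tested genes and no call. These were Clock (-0.34) and the casein kinases Csnk1d (0.18) and Csnk1e (0.32). Clock alone of them encodes an activator, so the list says little about the positive arm.

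Both sequences below are promoter windows of clock genes that were higher in the 10% CR pool, from 250 bases before to 50 bases after the start (RefSeq, build GRCr8). They are shown for the clock motifs they hold, in capitals. Tef holds the E-box CACGTG, which CLOCK and its partner bind, at chr7:115206577-115206876 on the plus strand, and Per2 holds the D-box TTATGTAA at chr9:99496944-99497243 on the minus strand.
Tef: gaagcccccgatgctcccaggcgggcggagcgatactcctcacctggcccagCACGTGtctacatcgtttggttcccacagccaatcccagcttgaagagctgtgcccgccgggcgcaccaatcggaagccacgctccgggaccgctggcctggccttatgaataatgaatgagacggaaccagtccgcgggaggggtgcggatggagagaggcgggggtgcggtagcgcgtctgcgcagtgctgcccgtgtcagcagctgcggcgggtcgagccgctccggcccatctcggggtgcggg
Per2: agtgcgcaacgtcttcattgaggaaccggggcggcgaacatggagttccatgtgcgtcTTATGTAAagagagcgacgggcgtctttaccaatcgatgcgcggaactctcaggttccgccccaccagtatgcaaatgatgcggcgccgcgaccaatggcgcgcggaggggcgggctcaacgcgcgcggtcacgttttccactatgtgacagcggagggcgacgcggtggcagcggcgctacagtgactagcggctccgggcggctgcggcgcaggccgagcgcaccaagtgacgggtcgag
The E-box was searched on both strands and reads the same on each. It was in 3 of the 10 clock negative arm and output genes with a promoter given (Bhlhe40, Bhlhe41 and Tef), against 6.42% of all 33469 promoters and 9.75% of those of tested genes. Of these 3 genes Tef alone was called. The D-box, searched on both strands, was in Per2 alone of the 10, against 0.893% of all promoters and 0.500% of those of tested genes. A match is a stretch of letters only, and the arrays measured no binding.

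**Figure D3:**
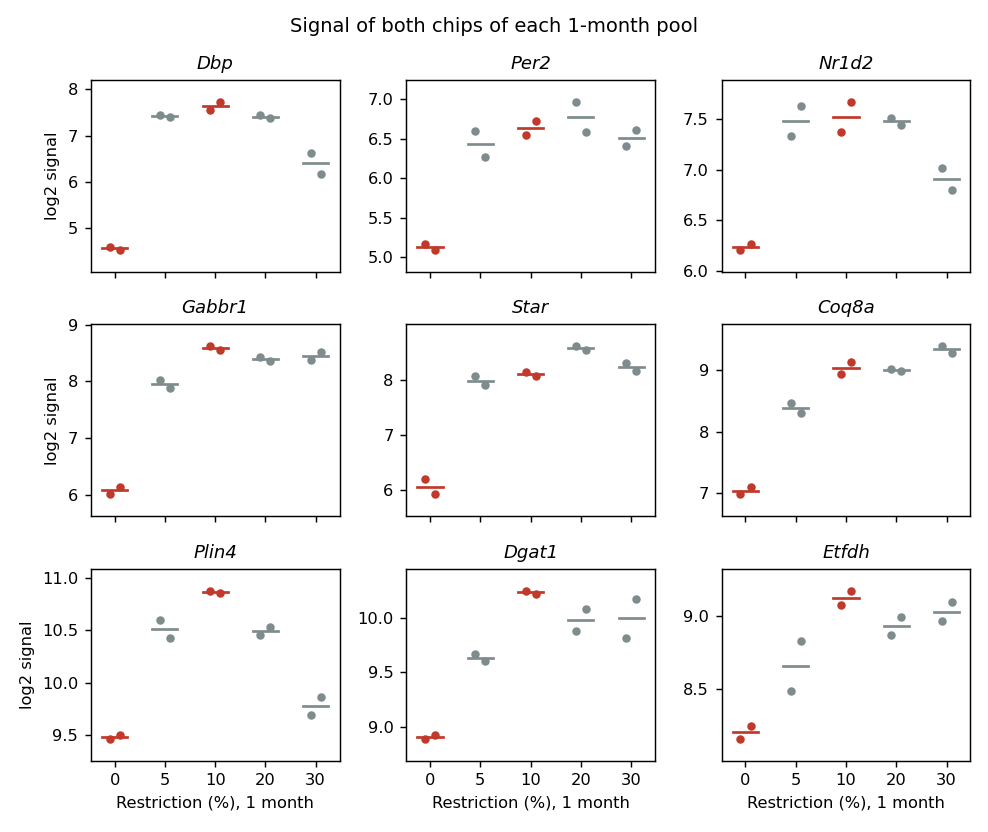
Log2 signal of 9 genes on both chips (points) of each 1-month pool, with the pool mean as a bar, against restriction in percent, where 0 is the control. Red marks the pools compared, and in all 9 genes both 10% CR chips lie above both control chips, from 0.92 for Etfdh to 3.07 for Dbp on the difference of means.

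Between Dbp and Per2 in size lay genes of receptors, steroid transport and coenzyme Q. Gabbr1, a subunit of the GABA-B receptor, read 64.3 and 70.6 in the control pool and 393.4 and 377.8 in the 10% CR pool (2.52 ± 0.14). Star, which carries cholesterol into mitochondria for steroid synthesis, read 73.9 and 61.0 against 281.9 and 265.9 (2.03 ± 0.14). Coq8a, a kinase-like protein needed for coenzyme Q synthesis, read 126.0 and 136.2 against 492.2 and 564.2 (2.01 ± 0.06). The pools did not overlap in any of the 3, and the chips of a pool lay close together. Hrh3, a histamine receptor, differed by 2.23 ± 0.46 and a second probe set of it by 3.26. Asrgl1, an asparaginase, differed by 1.63, Nat1, an arylamine acetyltransferase, by 1.61 and Crem, a factor of cyclic AMP signalling, by 1.60. C19h1orf131 (1.70), Crem and Isl1 (1.55) each rested partly on 1 weak control chip, at signals of 4.9, 15.5 and 5.5.

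Adipocyte markers lay above 0 by a modest amount, with 1 exception. Of 26 tested, 8 were higher and 1 lower, 25 lay above 0, and the list median was 0.44. Plin4, a coat protein of lipid droplets, read 707.0 and 725.7 in the control pool and 1884.7 and 1861.3 in the 10% CR pool (1.39 ± 0.04). Pparg, the nuclear receptor that drives adipocyte differentiation, read 378.9 and 368.8 against 1034.5 and 890.3 (1.36 ± 0.13). Both stood well above the spread of their chips. The abundant markers differed less, with Fabp4 and Cfd at 0.31 each, Lpl at 0.23 and Plin1 at 0.15, none of them called. Leptin (Lep) stood at 0.47 and was not called. Apln, which encodes the peptide apelin, was the lower marker, at -0.83.

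Because this list shifted as a whole while lymphocyte transcripts were low, several of the groups below were also read relative to the adipocyte median of 0.44. On that scale 102 probe sets were called higher (1.07%) and 4026 lower (42.3%). Of the 11 clock genes 6 were called higher on it. Of 33 actin and tubulin genes 28 were called lower on it and none higher. Ribosomal proteins had 26 of 31 called lower on it and none higher. The medians of the tricarboxylic acid cycle, oxidative phosphorylation, lipolysis, uptake, glycolysis, fatty acid synthesis, adipokine, glucocorticoid, antioxidant and matrix lists turned negative.

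Mitochondrial fatty acid oxidation held higher calls only, in a part of its genes. Of 21 beta-oxidation genes, 11 were higher and none lower, 20 lay above 0, and the median was 0.64. Cpt2, which restores acyl-CoA inside the mitochondrion, read 147.3 and 134.7 in the control pool and 265.0 and 281.9 in the 10% CR pool (0.96 ± 0.15). Etfdh, which passes electrons from beta-oxidation to coenzyme Q, read 286.4 and 303.6 against 537.7 and 576.3 (0.92 ± 0.01). Acaa2, the thiolase of the last step, read 1063.6 and 1095.5 against 1939.3 and 1994.6. The pools did not overlap in any of the 3, and duplicate chips lay close together. The electron carriers Etfb (0.82) and Etfa (0.65), the dehydrogenase Acadl (0.80), the muscle-type carnitine transferase Cpt1b (0.82), the carnitine carrier Slc25a20 (0.76) and Echs1, Eci1 and Hadha were the other calls. Acadvl, Acadm, Acads, Hadh, Hadhb, Decr1, Crat, Acad9 and Eci2 lay above 0 without a call, and Cpt1a, the liver-type transferase, stood at -0.30. Relative to the adipocyte median the list median was 0.19 and no member was called higher and 1 was called lower.

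Peroxisomal oxidation showed the same picture. Of 13 genes 6 were higher and none lower (median 0.57). Ehhadh, the bifunctional enzyme of the peroxisome, read 30.4 and 24.6 in the control pool and 85.8 and 76.5 in the 10% CR pool (1.57 ± 0.10). It was the 1 member still called higher relative to the adipocyte median, and 1 member was called lower on that scale. Ech1 (0.97), Decr2 (0.94), Phyh (0.78), Acot8 (0.71) and Hsd17b4 (0.61) were the other calls.

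Other mitochondrial lists held fewer calls. Of 18 genes of branched-chain amino acid breakdown 4 were higher and all 18 lay above 0 (median 0.48), led by Hibch (0.92) and Auh (0.79). Of 21 genes of the tricarboxylic acid cycle and its entry 3 were higher (median 0.39), namely Pc (0.95), Idh1 (0.89) and Sdhb (0.63). Pc makes oxaloacetate and Idh1 is the cytosolic isocitrate dehydrogenase. Of 55 subunits of oxidative phosphorylation 3 were called, at 0.59 to 0.60, although 52 lay above 0 (median 0.32), a share of calls no larger than the 6.24% of all tested genes. With each chip centred on its median 16, 13 and 29 members of the 3 lists were called higher. None of the 3 lists had a member called higher relative to the adipocyte median. Cidea and Cpt1b were the 2 of 4 brown fat genes called, and the gene for the potassium channel Kcnk3 stood at 0.27 by its brighter probe set.

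Lists for building and breaking down triglyceride both held higher calls and no lower ones, in a minority of their genes. Of 13 genes of triglyceride synthesis and glyceroneogenesis 4 were higher and none lower (median 0.50). Dgat1, the enzyme of the last step of triglyceride synthesis, read 476.1 and 487.2 in the control pool and 1214.3 and 1190.7 in the 10% CR pool (1.32 ± 0.04). Agpat2 (1.05), Lpin1 (0.97) and Pc were the other calls. Of 19 genes of lipolysis and lipid droplets 6 were higher and none lower (median 0.41). Pnpla2, the lipase that opens triglyceride breakdown, read 1414.7 and 1169.5 against 2516.2 and 2473.6 (0.96 ± 0.18), and Lipe, hormone-sensitive lipase, 1054.3 and 965.3 against 1965.1 and 1685.2 (0.85 ± 0.07). Pde3b, the phosphodiesterase through which insulin restrains lipolysis, was higher as well (1.28). Dgat1, Agpat2, Plin4 and Pde3b were called relative to the adipocyte median as well, and Pnpla2, Lipe and Lpin1 were not. Among 17 uptake genes, the transporter Slc27a1 (1.34) and Gpihbp1 (1.22), which anchors lipoprotein lipase on capillaries, were higher and Acsl3 (-0.82) was lower.

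Fatty acid synthesis did not follow these lists. Of 19 genes none was higher and 4 were lower (median 0.13), whereas 3 were higher and 3 lower (median 0.40) with each chip centred on its median. Fasn stood at 0.15, Acaca at 0.46 and Scd at 0.31. The lower genes were Scd2 (-3.12), a desaturase, Pnpla3 (-1.07), Fads2 (-0.91) and Fads1 (-0.86), the last 2 being desaturases of polyunsaturated fatty acids. Scd2 read 236.9 and 182.4 in the control pool and 17.6 and 32.4 in the 10% CR pool, but it was also set apart, since its signal tracked the lymphocyte markers over the other pools. Pnpla3 was not set apart and read 336.9 and 357.1 against 190.9 and 142.4 (-1.07 ± 0.36). Fads2 was weak, with 1 of its 10% CR chips at 23.4 against 25.0 in the control pool, and it was not called with 16 added to each signal. Against the same control it stood at 0.43, 0.29 and 0.71 at 5%, 20% and 30% CR.

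In cholesterol synthesis the calls were mostly lower. Of 20 genes 7 were lower and 1, Star, was higher (median -0.25). Idi1 and Dhcr7, enzymes of the isoprenoid and late sterol steps, read 116.9 and 145.5 against 51.7 and 61.8 (-1.21 ± 0.04) and 270.4 and 231.5 against 118.5 and 117.6 (-1.08 ± 0.15). Acat2, Fdps, Nsdhl and Cyp51 lay between -0.94 and -0.59. Srebf2, which switches on this pathway, was at -0.84 and was set apart. With each chip centred on its median the list median was 0.01, with 4 members lower and 2 higher.

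Genes answering to glucocorticoids and fasting were mostly higher where they were called. Of 21 genes 9 were higher and 1 lower (median 0.40). Pdk2 (1.29) and Pdk4 (1.07), kinases that close the pyruvate dehydrogenase step, and Glul (1.15), glutamine synthetase, were the largest. Pdk4 read 115.5 and 106.2 in the control pool and 225.2 and 241.5 in the 10% CR pool. Fkbp5 (0.67), Klf15 (0.61), Hsd11b1 (0.61) and Tsc22d3 (0.59) were smaller calls, and Cdkn1a, a cell cycle inhibitor, was lower (-1.38). Relative to the adipocyte median 3 members were called higher and 7 lower. The half-site AGAACA of the glucocorticoid receptor, searched on both strands, was in 1 of 17 promoters of the list, that of Lpin1, against 20.7% of all promoters and 11.6% of those of tested genes.

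Of the detoxifying enzymes, 10 of 20 xenobiotic genes were called higher and 1 lower (median 0.57). Cyp2e1 (1.22), Por (1.16), the electron donor of cytochromes P450, Ephx1 (1.13), Cbr3 (1.07) and Adh1c (1.04) were the largest. Cyp1b1 was the lower gene, at -1.91, with signals of 55.3 and 79.2 against 18.4 and 16.9. Of 36 glutathione and antioxidant genes 4 were higher, led by Gss (1.35), glutathione synthetase, and Gsr (1.03), glutathione reductase, and Hmox1 (-1.52) was lower and set apart. Relative to the adipocyte median 5 xenobiotic genes were called higher and 2 lower, and 1 glutathione and antioxidant gene was called higher and 6 lower.

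Signalling genes held calls in both directions. Of 25 insulin and IGF genes 4 were higher and 2 lower (median -0.11), with Grb14 (0.95) and Grb10 (0.82), adaptors that bind the insulin receptor, as the largest higher and Ptpn1 (-1.02) and Pik3r1 (-0.75) lower. Of 14 adipokines Nampt (1.16), which makes a precursor of NAD, and Agt (0.80) were higher and Ccl2 (-1.37) and Apln lower. Of 26 adipocyte transcription factors 4 were higher, namely Pparg, the liver X receptor Nr1h3 (0.84), Ncoa1 (0.69) and Klf15, and 3 lower, namely Nr4a1, Klf2 and Stat5b. Of 18 glycolysis genes Pfkfb3 was higher (0.74) and Slc2a1 lower (-0.63), and the insulin-responsive transporter Slc2a4 stood at 0.03. The shares called lower in the insulin, transcription factor and glycolysis lists were below the 13.4% of all tested genes, and that of the adipokines was close to it. The shares called higher were above 6.24% in the insulin, adipokine and transcription factor lists and below it in glycolysis. Immediate early genes gave 4 lower, led by Egr1 (-0.98), and 2 higher, Rgs2 (0.89) and Ifrd1 (0.77), of 13.

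Structural genes were described by their lists. Of 33 actin and tubulin genes 16 were lower and none higher (median -0.58), or 7 lower and 1 higher (median -0.31) with each chip centred on its median, and 15 of the 33 tracked the lymphocyte markers, among them Cotl1 (-2.98), Lcp1 (-2.76), Msn (-1.32) and Pfn1 (-0.74). Tubb2b was lower and did not track them, at 94.9 and 98.9 against 28.5 and 16.5 (-2.16 ± 0.60). Its near-identical paralogue Tubb2a stood at -0.89, and cross-hybridization between these paralogues was not tested. Collagen and matrix genes hardly differed, with 2 of 46 higher, Fbln5 (0.74) and Lamb2 (0.63), and a median of 0.07. Ribosomal proteins had no call among 31, although 29 lay below 0 (median -0.28). With each chip centred on its median the list median was -0.02, again without a call.

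Of the other lower genes that were not set apart, Hyou1 (-2.12), a chaperone of the endoplasmic reticulum, read 51.3 and 45.7 against 8.4 and 14.7. RT1-T24-3 (-2.12), Mxd1 (-2.02), Lst1 (-1.97), Il13ra2 (-1.92), Zfp746 (-1.87), Cxcr3 (-1.83), Cdca3 (-1.79), Nsg1 (-1.78) and Mast3 (-1.76) completed the 12 largest with Tubb2b and Cyp1b1. RT1-T24-3 is a class I gene, Lst1 and Cxcr3 are genes of leukocytes and Cdca3 is a gene of dividing cells, although none of them met the rule for setting apart. All 12 had control signals under 100. Of 25 genes of endoplasmic reticulum folding 4 were lower (median -0.12) and Hspa5 stood at -0.44. Of 24 cytosolic chaperones Hsph1 (-0.98) and Chordc1 (-0.95) were lower (median -0.22).

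Other cell types were read from their markers. Of 18 endothelial genes 4 were lower and 1 higher (median -0.15), and Pecam1 stood at -0.54 and Kdr at -0.21, neither called. Plvap (-1.18) and Cldn5, a tight junction protein, were lower, and Vcam1 (-1.21) and S1pr1 (-1.10) were lower and set apart. Of 9 mesothelial genes Krt19 (1.03) and Krt8 (0.75) were higher and Slpi (-3.55) and Krt18 (-1.22) lower, and Slpi, a protease inhibitor also made by immune cells, tracked the lymphocyte markers. Smooth muscle markers had 3 of 13 lower and a median of -0.21, while the 5% and 20% CR pools stood at 0.93 and 1.06 against the same control. Mast cell, erythroid and skeletal muscle markers had no call among 3, 3 and 5 tested genes. Of 4 exocrine pancreas genes Prss1 and Cela1 were higher at signals of at most 74.1 and Pnlip was lower at signals of at most 22.1.

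**Figure D4:**
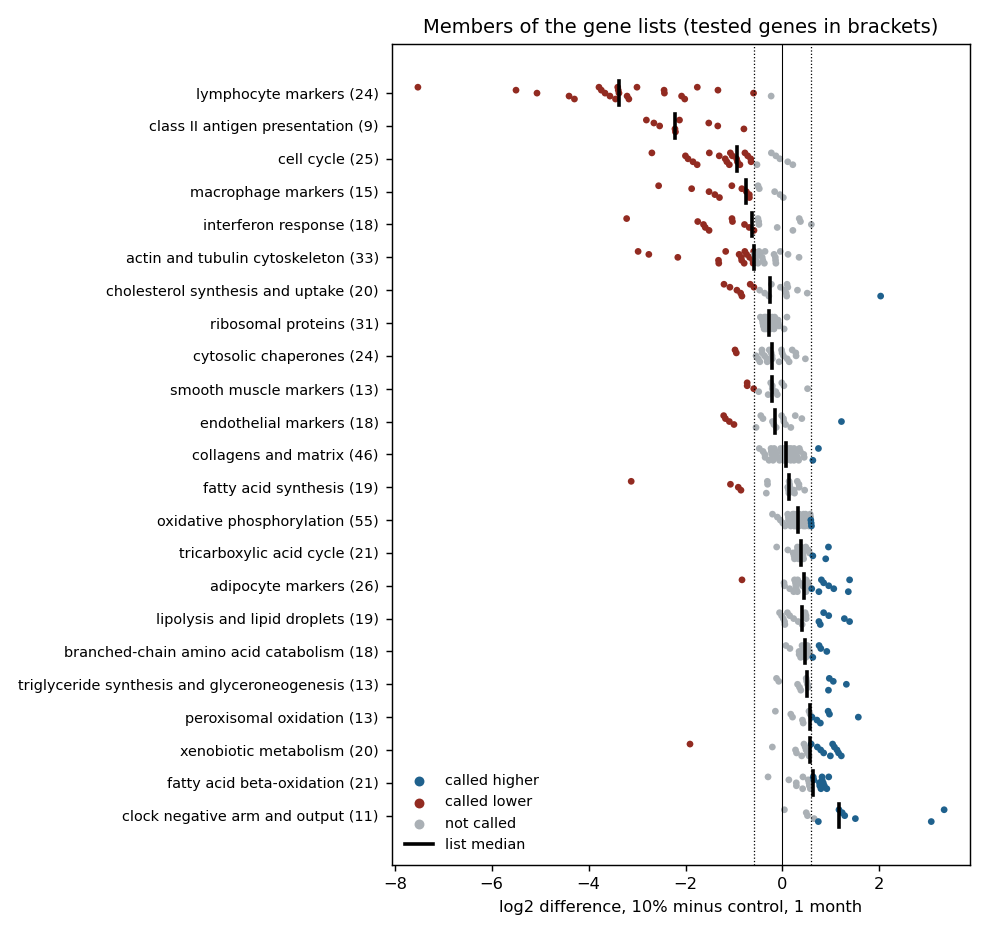
Each point is 1 tested gene of a list (rows, number tested in brackets) at its log2 difference, 10% CR minus control at 1 month, on the x axis. Blue and red points were called higher and lower, grey points were not called, black bars are list medians, from -3.38 for lymphocyte markers to 1.17 for clock output, and dotted lines mark 1.5-fold.

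Of 24 tested genes that the study names for adipose tissue or across tissues, 10 were called higher and 10 lower. The study chose them on data that include these chips, so the count is not independent evidence of their direction. Those not described above were Akr1c14 (0.99) and Fmo1 (0.59) on the higher side, Dnase1l3 (-2.47), Cmtm6 (-1.08) and Tpm4 (-0.68) on the lower side, and Sult1a1 (0.51), Cd36 (0.41), Actg1 (-0.37) and Tubb4b (-0.41) among those not called. Dnase1l3, a nuclease of immune cells, tracked the lymphocyte markers. The study used change calls without a fold minimum. For these pools it marked Actg1 and Tubb4b as lower and left Fmo1 unmarked, unlike the 1.5-fold rule used here. The list held 25 genes, and Hsp90aa1, which the study marked as lower for these pools, was not matched to a probe set of 1 symbol here.

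The spread between pools can only be borrowed from other diets. A limma fit gave the 2 pools terms of their own and took the spread from the 8 other pools around a line on restriction level. With Benjamini-Hochberg adjustment over 9520 probe sets, 1 probe set was higher (0.0105%) and none lower, and at an unadjusted p under 0.05 the counts were 917 (9.63%) and 1250 (13.1%). The probe set called is the weaker one for Kcnk3 (2.41 ± 0.25 SE, limma adjusted p = 0.0250), and it rests on a signal of 2.4 on the second control chip, since the first chips alone gave 0.91 with an adjusted p of 0.188. Over the alternatives its adjusted p ran from 0.00375 to 0.188. Chip median centring gave 279 higher and 49 lower calls in the same fit. The control and 30% CR pools at 1 week carried exocrine pancreas transcripts, at mean log2 signals of 12.4 and 7.36 against 3.86 to 4.73 in the other pools. Without those 2 pools the fit called 13 probe sets higher (0.137%) and 1 lower (0.0105%). They were Coq8a, Hrh3, Gabbr1 (2 probe sets), Dgat1, Tef, Mtarc1, Nat1, Kcnk3, Gss, Asrgl1, Pfkfb3 and Dbp on the higher side and the macrophage gene Aif1 on the lower side. For Hrh3, Asrgl1 and Pfkfb3 the probe set called was not the one standing for the gene above, and it differed by 3.26, 1.89 and 1.24. The Tef value rests on the weak control chip described above. For Gabbr1 and Dgat1 the adjusted p was 0.0373 and 0.0413 in that fit.

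At 1 week a separate pair of pools holds the same restriction with its own control, so the 2 durations share no chip. Of the 440 higher genes 171 were also called higher at 1 week (38.9%), where 6.83% of all tested genes were. Of the 953 lower genes 343 were also called lower at 1 week (36.0%), where 7.1% of all tested genes were. Of the 78 lower genes on an immune list, 54 were also called lower at 1 week (69.2%), so the 36.0% is not a share of fat genes alone. The lower genes were not split further, because both 1-week pools enter the correlation part of the rule for setting genes apart. Dbp differed by 2.81 at 1 week, Gabbr1 by 1.76, Coq8a by 1.43, Pparg by 1.17 and Dgat1 by 1.07. The lymphocyte markers had a median of -1.92 at 1 week and the 1-week control pool carried pancreas transcripts, and their part in these counts was not tested. The limma test of the difference between the 2 durations called no probe set in either direction (smallest adjusted p = 0.0895), with 163 (1.71%) higher and 404 (4.24%) lower at an unadjusted p under 0.05. Pdk4 stood at 1.07 at 1 month and 0.26 at 1 week, a difference of 0.82 ± 0.44 SE with a limma adjusted p of 0.798.

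The other restriction levels at 1 month share the control pool, so their values stand beside those of 10% CR and are not compared with them. Dbp differed from control by 2.86, 3.07, 2.84 and 1.83 at 5%, 10%, 20% and 30% CR. Plin4 gave 1.03, 1.39, 1.01 and 0.29, and Lep 0.42, 0.47, 0.05 and -0.71. Coq8a gave 1.36, 2.01, 1.98 and 2.31. Of these 4 genes Lep alone had a negative value, at 30% CR. List medians for beta-oxidation were 0.24, 0.64, 0.57 and 0.63, for the clock 1.02, 1.17, 1.10 and 0.67, and for lymphocyte markers -0.04, -3.38, -3.38 and -1.04. The 440 higher genes had medians of 0.38, 0.75, 0.68 and 0.63.

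**Figure D5:**
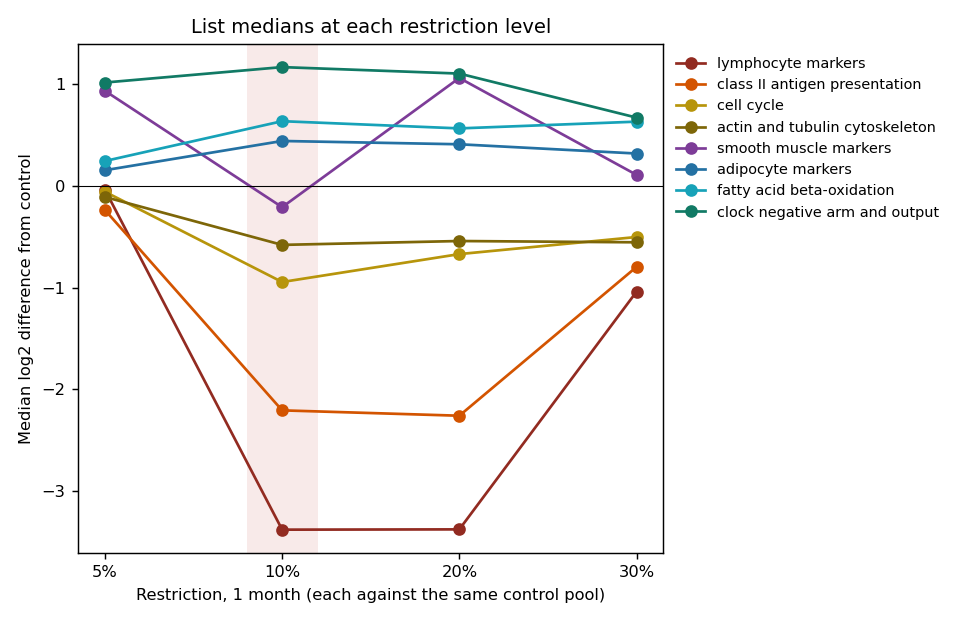
Median log2 difference from the control pool (y axis) for 8 gene lists at 5%, 10%, 20% and 30% CR at 1 month (x axis), with the 10% CR level shaded. All levels share 1 control pool, so the lines are not independent, and at 10% CR they run from -3.38 for lymphocyte markers to 1.17 for clock output.

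The 20% CR pool was the nearest in lymphocyte level, at 4.76 against 4.81, and setting it against the 10% CR pool needs no control. The limma fit called no probe set between them in either direction, with 266 (2.79%) higher and 1.23% of probe sets lower at 20% CR at an unadjusted p under 0.05. Smooth muscle markers were the list furthest apart, with a median of 1.30 for 20% minus 10% CR, and the lymphocyte, beta-oxidation and clock lists stood at -0.15, -0.06 and 0.01. Nr1d1 was 0.85 lower at 20% than at 10% CR.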

How the data were processed

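Labels give 20 chips in 10 pools, each the RNA of 5 rats on 2 chips. The authors scaled and summarised each chip with MAS5, and the deposited values are array intensities on a linear scale. The 1-week chips were scaled to different levels by chip number, so same-numbered chips were paired there. Of 15866 probe sets analysed (57 array controls left out), 9520 passed a mean log2 signal at the 40th percentile of all chips (signal 22.8). Signals under 1 were set to 1, and the brightest probe set stood for a gene. Gene symbols came from the platform annotation (12783 probe sets with 1 symbol, 312 with several and 2771 with none), and probe sets that hit several transcripts, such as those of RT1, immunoglobulin and tubulin genes, may mix paralogues. The fold rule, limma 3.58.1 (eBayes with trend, Benjamini-Hochberg adjusted p under 0.05) in R 4.3.3 and the plots (Python 3.11.15) were checked on simulated data where they test. The limma fits had 3 to 5 residual degrees of freedom. Genes were named by a rule, namely the 12 largest calls in each direction outside the immune and other-tissue lists, the 8 largest set apart, up to 4 calls of a list (or its 2 largest differences without a call), every study-named gene, limma calls and, for a few lists, every member. Further list members (Cd14, Csf1r, Pecam1, Fasn, Fkbp5 and the like) were named after their values were seen. Members and lists were chosen with earlier results of these data known. Probe intensity limits precision, and p-values describe the spread between pools of other diets, not between rats.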

Additional observations from a re-analysis of the deposited data

Results flagged for a closer look

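The exocrine pancreas genes Cela1 and Prss1 went opposite ways in the 2 durations. Cela1 differed by 0.75 between 10% CR and control at 1 month and by -6.52 at 1 week, a difference of 7.27 ± 0.73 SE (limma adjusted p = 0.0895). Prss1 differed by 0.85 and -8.81, a difference of 9.66 ± 2.55 SE (limma adjusted p = 0.791). Neither difference passed the threshold. The 1-week control pool had a mean log2 signal of 12.4 over the pancreas markers, and at 1 month both genes read at most 74.1 on every chip compared.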

How the results depend on the processing

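Against 592 probe sets higher and 1277 lower, the counts were 1677 and 614 with chip median centring, 862 and 839 after quantile normalization, 102 and 4026 relative to the adipocyte median, 403 and 800 with 16 added to each signal, 1530 and 2375 at a lower fold minimum, 116 and 468 at 2-fold, 1147 and 2669 without the filter and 460 and 595 with a 60th percentile filter. Leaving out 1 chip number gave 781 to 834 higher and 1365 to 1633 lower. Requiring one sign in the paired chips only (a replicate block) gave 601 and 1303. Deviations of same-numbered chips correlated at -0.087 to 0.225 over the 10 pairs of 1-month pools (0.035 for control and 10% CR), above 0.1 in only some pairs, so the numbers were not taken to pair the 1-month samples. At 1 week they mark the level to which a chip was scaled. Of 185 called genes named by the rule, 0 were reversed under any setting run on them, and 137 to 185 were called again. Centring on probe sets not set apart, added after the data were seen, gave 644 and 1191.

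List medians for lymphocyte, adipocyte, beta-oxidation and clock genes were -3.11, 0.71, 0.90 and 1.44 with centring, and -3.82, 0, 0.19 and 0.73 relative to the adipocyte median. Quantile normalization gave -3.23, 0.37 and 0.49 for the first 3. Adding 16 gave -2.43 for lymphocyte and 0.72 for clock genes. The median over all probe sets of a gene was -3.19 for lymphocyte markers. Leaving out 1 chip number gave -3.26 to -3.08, 0.39 to 0.46, 0.63 to 0.73 and 0.99 to 1.27 for the 4 lists. At a correlation of 0.9 in place of 0.8, 255 lower genes were set apart. With correlations of -0.8 or less counted, which was added after the data were seen, 29 higher genes would be set apart in place of none.

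In limma, 1 probe set higher and none lower became none higher with a dose slope for each duration, without the filter or with 16 added, 13 and 1 without the pools that carry pancreas genes, and 279 and 49 with centring. Leaving out 1 chip number gave 0 to 17 higher and 0 to 18 lower, so these calls turn on single chips. The cause was not tested.

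The pools limit every statement, with 1 pool of 5 rats for each diet and no second pool to set beside it. Signals under about the filter level of 22.8 carry large folds from small differences, and the low end of the lymphocyte values is such a case.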
